A study of Mus musculus with 4 samples.

Results

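Pericentral Wnt target genes are the genes that hepatocytes around the central vein of the liver lobule switch on in response to Wnt ligands. The 9 genes examined were Glul, Oat, Slc1a2, Rhbg, Tbx3, Axin2, Lgr5, Rnf43 and Znrf3. They were picked by symbol, and all 9 were found among the 24346 gene symbols of the expression tables. Endothelial cells of the central vein secrete Wnt2, Wnt9b and the enhancer Rspo3, which stabilize β-catenin in the neighbouring hepatocytes. β-catenin then acts with TCF/LEF factors on a narrow ring of cells that capture ammonium as glutamine. Glul encodes glutamine synthetase, the classical marker of that ring, and Axin2, Lgr5, Rnf43 and Znrf3 encode parts of the pathway's own feedback.

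RNA sequencing covered the liver of male ob/ob mice, which lack leptin and become obese, in 4 groups with 1 library each. Feeding began at 6 weeks of age and lasted 4 weeks. CD was a regular chow with 5% corn oil, and WD was a western type diet with 20% cocoa butter. By the paper's methods, WD also held more sucrose and less casein than CD, so the diets differed in more than fat. CD+7KC and WD+7KC were the same diets with 0.01% of the oxidized cholesterol 7-ketocholesterol (7KC). All 4 diets held 1% cholesterol, so neither control was free of added cholesterol, and no lean mice were sequenced. The number of mice behind a library is not given in the sources used here. Since each group was a lone library, none of the differences could be checked against replicates, and p-values are not reported. The values are FPKM, in which fragments are scaled to transcript length and to the size of the library, so that levels can be compared between genes. Log2 fold changes are on the log2(FPKM + 0.1) scale, which understates the change of low genes.

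From the steps between low FPKM values, the libraries were estimated to hold 9410000 to 12100000 fragments. The reads behind a gene followed from this depth and its mRNA length. The 95% intervals given below are exact (Clopper-Pearson) intervals of the log2 ratio of these reads, without a pseudocount. Variation from mouse to mouse lies outside these intervals, which reflect counting error alone. For Slc1a2, Tbx3, Rnf43 and Znrf3, which have more than 1 mRNA, the shortest was used, which gives the fewest reads. The albumin gene Alb was the highest gene in each library, as fits the labelled tissue, and 8 of the 9 hepatocyte markers were listed. The FPKM values summed to 602059 in WD+7KC and to between 696062 and 715605 in the other libraries. Rescaling the libraries to equal sums (TPM) therefore moved the all-gene median in WD+7KC relative to WD from 0.002 to 0.21 on the log2 scale. In that comparison, the sign of a negative log2 fold change, list median or interval end no larger than this shift can depend on the scaling.

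To show the DNA at the starts of these genes, the 250 bases before annotated transcription starts were taken from RefSeq (GRCm38.p6), which held windows for 5 of the 9 genes. Windows of 300 bases, which reach 50 bases past the start, were searched on both strands for the TCF/LEF letters CTTTGAT and CTTTGAA, which differ in the last letter. CTTTGAT was found in 3.73% and CTTTGAA in 5.14% of all 32851 windows. Among the 6 windows of the 5 genes, only Slc1a2 held a match, which was CTTTGAT on the reverse strand, 207 bases before the start. The start used for Slc1a2 and both starts used for Rnf43 lay inside the gene as GENCODE vM21 (GRCm38) draws it, so these windows are not in front of the whole gene, and the Slc1a2 match stands at an internal start. Sp5, another Wnt feedback target, held the same letters on the forward strand 104 bases before its start. The sequences of Oat, which differed most with 7KC, of Axin2, and of the stretch of Slc1a2 and the window of Sp5 with the matches are shown here 5′ to 3′ on the gene's strand, with the matched letters in capitals. None of the printed stretches overlapped an annotated exon.
Oat (chr7:132576399-132576648, minus strand): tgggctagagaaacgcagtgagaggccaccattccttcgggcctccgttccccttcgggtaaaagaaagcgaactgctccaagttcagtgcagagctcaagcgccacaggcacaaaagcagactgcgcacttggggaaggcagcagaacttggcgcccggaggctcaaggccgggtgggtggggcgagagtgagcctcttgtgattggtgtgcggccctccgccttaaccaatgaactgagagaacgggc
Axin2 (chr11:108920099-108920348, plus strand): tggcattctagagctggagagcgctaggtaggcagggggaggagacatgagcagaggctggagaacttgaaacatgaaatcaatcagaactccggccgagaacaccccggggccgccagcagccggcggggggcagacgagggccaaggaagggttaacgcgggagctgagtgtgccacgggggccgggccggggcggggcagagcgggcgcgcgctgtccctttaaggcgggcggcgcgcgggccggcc
Slc1a2 (chr2:102706188-102706287, plus strand): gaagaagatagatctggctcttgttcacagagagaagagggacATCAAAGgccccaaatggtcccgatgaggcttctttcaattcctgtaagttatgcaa
Sp5 (chr2:70474673-70474922, plus strand): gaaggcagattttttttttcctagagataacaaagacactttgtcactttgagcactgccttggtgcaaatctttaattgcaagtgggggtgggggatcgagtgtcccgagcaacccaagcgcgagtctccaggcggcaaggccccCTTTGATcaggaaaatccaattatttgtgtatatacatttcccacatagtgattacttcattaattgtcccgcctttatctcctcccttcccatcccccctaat

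The nitrogen-handling genes were the members with the highest levels. Glul (chromosome 1, 153899944 to 153909723, GRCm38) was at 262 FPKM in CD, 281 FPKM in CD+7KC, 309 FPKM in WD, and in WD+7KC at 314 FPKM. As a ratio, its highest and lowest libraries differed by less than those of any other gene in this nitrogen-handling group. Behind each value stood 7439 to 9845 reads. With 7KC, the log2 fold change of Glul was 0.02 (95% counting interval -0.02 to 0.07) on WD and 0.10 (0.05 to 0.15) on CD.

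Oat (chromosome 7, 132557478 to 132576398) encodes ornithine aminotransferase, which turns ornithine into a precursor of glutamate. It was at 243 FPKM in CD, 325 FPKM in CD+7KC, 159 FPKM in WD, and in WD+7KC at 228 FPKM. Oat was thus higher in the library with 7KC under each diet, and lower in each WD library than in its CD counterpart. The log2 fold change with 7KC was 0.53 (0.46 to 0.59) on WD, a ratio of 1.44, and 0.42 (0.37 to 0.47) on CD, a ratio of 1.34. The reads behind Oat numbered 2914 to 6970. Relative to Glul in the same library, a ratio that no library scaling can alter, Oat stood at 92.9% in CD and 116% in CD+7KC, and at 51.3% in WD against 72.7% in WD+7KC.

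Slc1a2 (chromosome 2, 102658659 to 102790784) encodes the glutamate transporter GLT-1, which supplies glutamate for glutamine synthesis. It was at 8.33 FPKM in CD, 10.9 FPKM in CD+7KC, 10.2 FPKM in WD, and in WD+7KC at 12.2 FPKM. Its log2 fold change with 7KC was 0.39 (0.09 to 0.70) on CD and 0.25 (-0.03 to 0.54) on WD. The interval on WD included 0 with reads counted from the shortest of its 3 mRNAs, which run from 1957 to 11595 bases. A longer mRNA would give more reads and a narrower interval, so this interval does not settle whether Slc1a2 differed on WD. Per Glul, Slc1a2 was at 3.18% in CD and 3.31% in WD, against 3.90% in CD+7KC and 3.87% in WD+7KC.

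Rhbg (chromosome 3, 88242874 to 88254709) encodes an ammonium transporter of the Rh family. It was at 8.88 FPKM in CD, 10.5 FPKM in CD+7KC, 4.39 FPKM in WD, and in WD+7KC at 5.34 FPKM. The CD libraries were the high ones and the WD libraries the low ones. With 7KC, Rhbg had a log2 fold change of 0.28 (-0.17 to 0.72) on WD and 0.25 (-0.06 to 0.55) on CD, intervals that both include 0, with 72 to 201 reads a library.

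**Figure D1:**
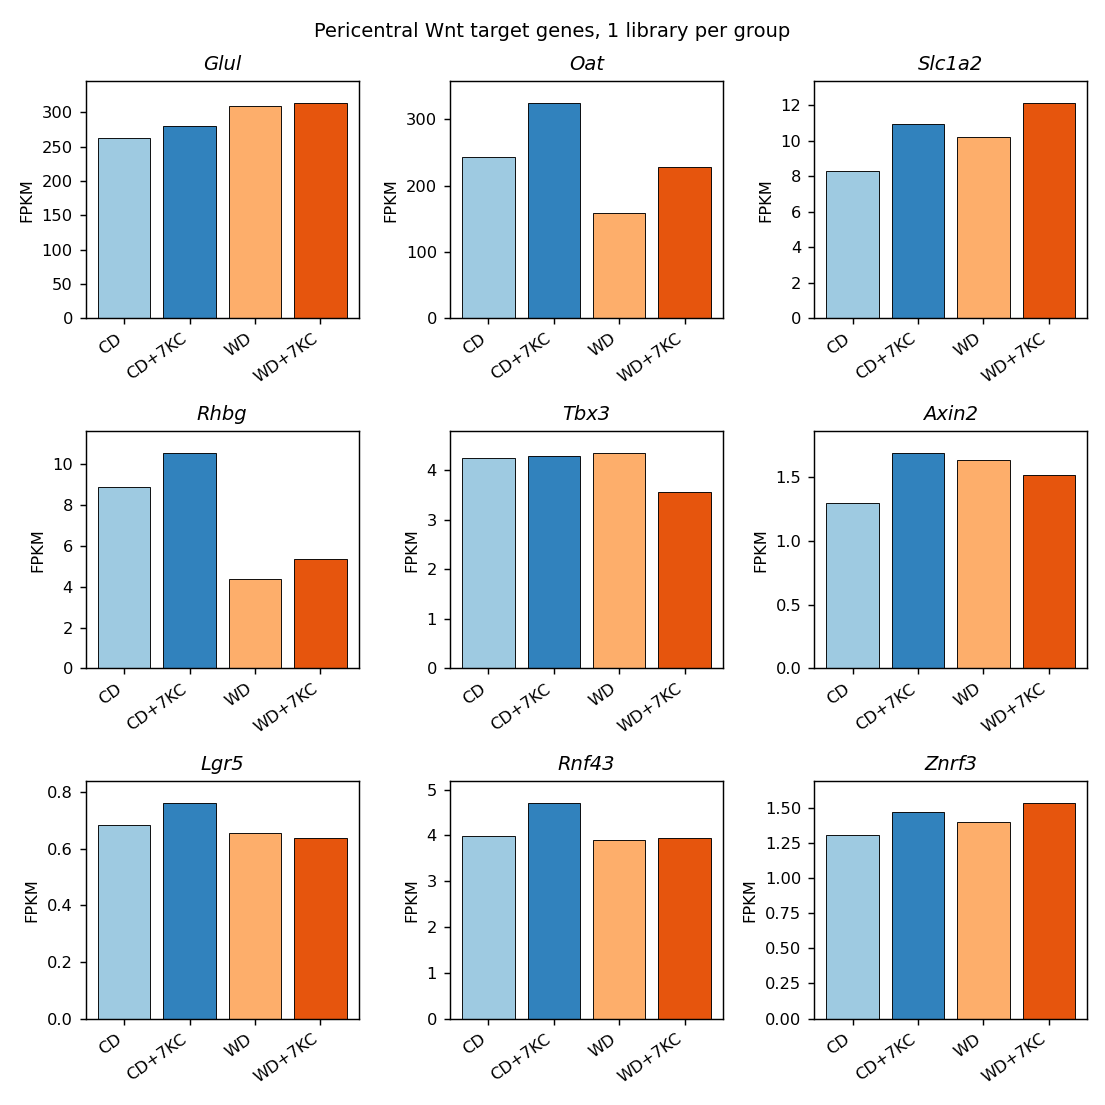
FPKM (vertical axis, from 0) of the 9 pericentral Wnt target genes across the CD and WD libraries with and without 7KC, with a bar for each library and therefore no error bars. Oat was lowest in WD (159 FPKM) and highest in CD+7KC (325 FPKM), Rhbg was lower in both WD libraries (4.39 and 5.34 FPKM) than in the CD libraries (8.88 and 10.5 FPKM), and Glul stayed between 262 and 314 FPKM.

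The transcription factor Tbx3 (chromosome 5, 119670669 to 119684724) was at 4.25 FPKM in CD, 4.29 FPKM in CD+7KC, 4.35 FPKM in WD, and in WD+7KC at 3.56 FPKM. WD+7KC was the low library, with a log2 fold change relative to WD of -0.28 (-0.58 to 0.01), and Tbx3 differed by 0.01 (-0.26 to 0.30) between CD+7KC and CD.

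The feedback genes were lower in level than the nitrogen-handling genes. Axin2 (chromosome 11, 108920349 to 108950783), a scaffold of the complex that degrades β-catenin and a general readout of Wnt signalling, was at 1.30 FPKM in CD, 1.69 FPKM in CD+7KC, 1.64 FPKM in WD, and in WD+7KC at 1.52 FPKM. CD was its low library. The log2 fold change of Axin2 with 7KC was 0.36 (-0.13 to 0.90) on CD and -0.10 (-0.61 to 0.40) on WD, with 58 to 76 reads a library. Lgr5 (chromosome 10, 115450311 to 115587780), the R-spondin receptor, was the lowest of the 9 genes in every library. It was at 0.684 FPKM in CD, 0.762 FPKM in CD+7KC, 0.655 FPKM in WD, and in WD+7KC at 0.637 FPKM, which rested on 28 to 38 reads. With 7KC, Lgr5 had a log2 fold change of 0.14 (-0.55 to 0.87) on CD and -0.04 (-0.80 to 0.73) on WD, so that a level 1.5-fold higher lay inside both intervals.

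Rnf43 and Znrf3 encode related ubiquitin ligases that remove Wnt receptors from the cell surface. Rnf43 (chromosome 11, 87662722 to 87735539) was at 4.00 FPKM in CD, 4.71 FPKM in CD+7KC, 3.90 FPKM in WD, and in WD+7KC at 3.93 FPKM. Its high library was CD+7KC, with a log2 fold change relative to CD of 0.23 (-0.08 to 0.56), and that on WD was 0.01 (-0.33 to 0.36). Znrf3 (chromosome 11, 5276324 to 5444847) was at 1.30 FPKM in CD, 1.47 FPKM in CD+7KC, 1.40 FPKM in WD, and in WD+7KC at 1.53 FPKM. Its log2 fold change with 7KC was 0.16 (-0.32 to 0.67) on CD and 0.12 (-0.34 to 0.64) on WD.

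Across the 9 genes, 7KC on WD went with higher values in 6 and lower values in 3. Of all genes compared on WD, 50.2% were higher. On CD, 7KC went with higher values in 9 of 9. In WD+7KC relative to WD, 0 of the 9 genes lay above 1 and 0 below -1 on the log2 scale, where 6.21% of all 15753 genes compared lay above 1 and 2.79% below -1. Their median was 0.02, beside 0.002 for all genes compared. In CD+7KC relative to CD, 0 of the 9 genes were past either limit, where 3.84% of 15684 genes lay above 1 and 2.91% below -1. Their median was 0.23, beside -0.001 for all genes compared, of which 49.3% were higher. The counting interval lay above 0 for Oat on WD, and for Glul, Oat and Slc1a2 on CD. Such intervals narrow as reads rise, so they tend to single out genes with many reads. On WD the interval of the hepatocyte marker Apob, at 0.07 (0.05 to 0.08), also lay above 0. Apob was the only hepatocyte marker that was higher there: the other 7 were lower, and the median of the 8 was -0.23. The share of all genes with an interval off 0 was not computed, here or in the comparisons and rescalings below. Such intervals therefore do not set the 9 genes apart from other genes. After rescaling to equal sums, Axin2 and Lgr5 turned from lower to higher in WD+7KC, which left 8 genes higher and 1 lower, and the median of 0.24 stood beside 0.21 for all genes.

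The same 4 libraries, compared between diets, had Oat and Rhbg lower on WD and Glul higher, with intervals off 0 in both comparisons. Rhbg had a log2 fold change of -0.9999 (-1.43 to -0.60) in WD relative to CD and -0.97 (-1.33 to -0.64) in WD+7KC relative to CD+7KC, ratios of 0.494 and 0.506. Oat had -0.62 (-0.68 to -0.55) and -0.51 (-0.56 to -0.46) in the same comparisons. Glul was higher on WD, by 0.24 (0.19 to 0.29) without 7KC and 0.16 (0.12 to 0.20) with it, and Slc1a2 by 0.30 (-0.02 to 0.62) and 0.15 (-0.11 to 0.43). For the other 5 genes the intervals included 0 in both diet comparisons. Rhbg thus lay just inside the limit of -1, so that 0 of the 9 genes were past it in WD relative to CD, where 5.31% of all genes compared lay above 1 and 4.38% below -1. In WD+7KC relative to CD+7KC, 0 of the 9 genes were past either limit, where 8.01% lay above 1 and 4.61% below -1. With a limit of 1.5-fold, 2 of the 9 genes (Oat and Rhbg) were lower in WD relative to CD, where 10.8% of all genes were, and 1 (Rhbg) in WD+7KC relative to CD+7KC, where 11.4% were. The median of the 9 genes was 0.03 in WD relative to CD and -0.23 in WD+7KC relative to CD+7KC, where rescaling to equal sums gave -0.04 beside 0.20 for all genes. The 4 comparisons share libraries, so their values are set side by side and not counted as separate evidence. With 1 library in each group, the difference between the 7KC changes on the 2 diets has no test. By counting error alone it was 0.11 (0.02 to 0.19) for Oat and -0.08 (-0.14 to -0.01) for Glul, from a normal approximation, and for the other 7 genes the interval included 0.

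**Figure D2:**
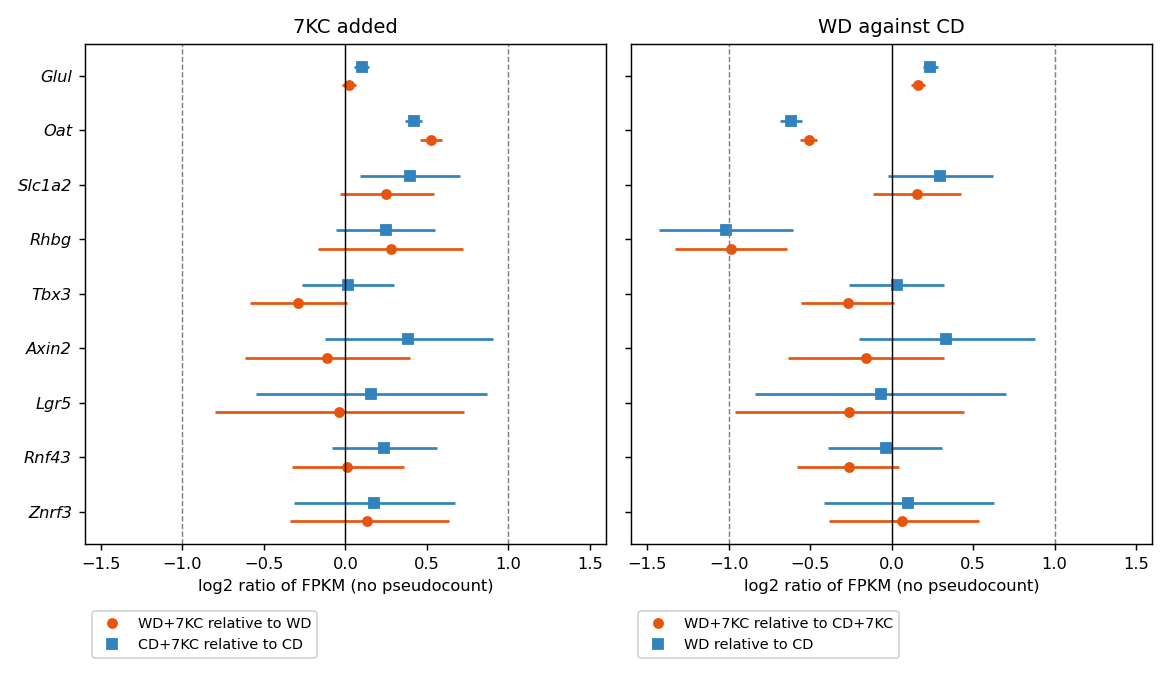
Log2 ratio of FPKM without a pseudocount (horizontal axis) for each of the 9 genes, with 7KC added (left) and between WD and CD (right). Lines are 95% counting intervals, which do not cover the variation between mice, and dashed lines mark -1 and 1. Oat lay to the right of 0 with 7KC on both diets, Oat and Rhbg lay to the left of 0 on WD, and the intervals of Axin2, Lgr5, Rnf43 and Znrf3 crossed 0 throughout.

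Among the signals of the central vein, Wnt2 had a larger log2 fold change with 7KC than any of the 9 targets on both diets. Wnt2 was at 0.238 FPKM in CD, 1.52 FPKM in CD+7KC, 0.387 FPKM in WD, and in WD+7KC at 2.23 FPKM. About 5.3, 34.2, 7.5 and 55.5 reads stood behind these values. Both libraries with 7KC were high and both without it were low. The log2 fold change of Wnt2 was 2.26 on WD (1.5 to 4.02) and 2.26 on CD (1.40 to 4.47), ratios of 5.78 and 6.38. Wnt9b was at 0.189 FPKM in CD, 0.335 FPKM in CD+7KC, 0.122 FPKM in WD, and in WD+7KC at 0.570 FPKM. Its log2 fold change was 1.59 (0.84 to 3.95) on WD, from 5.0 and 29.8 reads, and 0.59 (-0.44 to 2.19) on CD. With a pseudocount of 1 the value of Wnt9b on WD was 0.48, no longer above 1. Rspo3, the most abundant gene of this group, did not follow Wnt2, with 3.56 FPKM in CD, 3.47 FPKM in CD+7KC, 2.60 FPKM in WD, and in WD+7KC at 3.18 FPKM. Its intervals with 7KC included 0 on both diets. Wnt5b, a ligand best known outside the β-catenin branch, had -0.45 (-0.96 to 0.03) on WD and -0.005 (-0.61 to 0.60) on CD. Of the 25 genes for ligands, R-spondins and ligand release, 16 were above 0 FPKM in WD or WD+7KC, with 3 above 1 (Wnt2, Wnt9b and Rspo1) and 1 below -1 (Wnt6). On CD, 12 genes were above 0 FPKM, with Wnt2 above 1 and Wnt5a below -1. Rspo1 was listed at 0 in WD and Wnt6 at 0 in WD+7KC, each beside about 2 reads in the other library, so that their place past the limits rests on the pseudocount. Rspo1, Wnt6 and Wnt5a are named because of their values.

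Markers of endothelial cells, which make Wnt2, Wnt9b and Rspo3, were also higher with 7KC, as Wnt2 was. In bulk liver, fewer cells of a type and less RNA per cell cannot be told apart. The summed level of 8 endothelial markers was 59.6 FPKM in CD, 87.5 FPKM in CD+7KC, 47.7 FPKM in WD, and in WD+7KC at 136 FPKM. Clec4g alone made up 26.3, 48.7, 22.6 and 64.2 FPKM of these sums. In WD+7KC relative to WD, 8 of the 8 lay above 1, with a range of 1.07 to 1.95. In CD+7KC relative to CD, 7 were higher and 1 lower, with a range of -0.46 to 0.89 and 0 above 1. Per summed endothelial markers, Wnt2 was at 0.399% in CD and 0.811% in WD, against 1.73% in CD+7KC and 1.65% in WD+7KC. Wnt9b per the same sum was at 0.318% in CD and 0.256% in WD, against 0.383% in CD+7KC and 0.420% in WD+7KC. Rspo3 per this sum was at 5.98% in CD and 5.45% in WD, against 3.96% in CD+7KC and 2.35% in WD+7KC. The 8 markers are not particular to the endothelial cells of the central vein, and their sum leans on Clec4g. These ratios are therefore not levels per source cell. Of 8 macrophage markers, 8 were higher with 7KC on WD and 8 on CD, and their summed level was 139, 215, 233 and 472 FPKM in CD, CD+7KC, WD and WD+7KC. The summed hepatocyte markers were at 46769, 40883, 46669 and 38181 FPKM in the same order. Stellate cell markers summed to between 131 and 164 FPKM, most of it from Dcn, and 5 of the 6 were lower with 7KC on each diet. Cholangiocyte markers summed to 102, 46.4, 126 and 186 FPKM in the same order, most of it from Spp1. Of the 4 adipocyte markers Plin1 was listed at 0 in all 4 libraries and Adipoq in both WD libraries. The remaining 2 ran in different ways, with Cfd at 220, 63.2, 1.47 and 0.115 FPKM in CD, CD+7KC, WD and WD+7KC, and Fabp4 at 83.5, 66.5, 104 and 143 FPKM in that order. The part of these cell types in the values of the 9 genes was not tested.

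**Figure D3:**
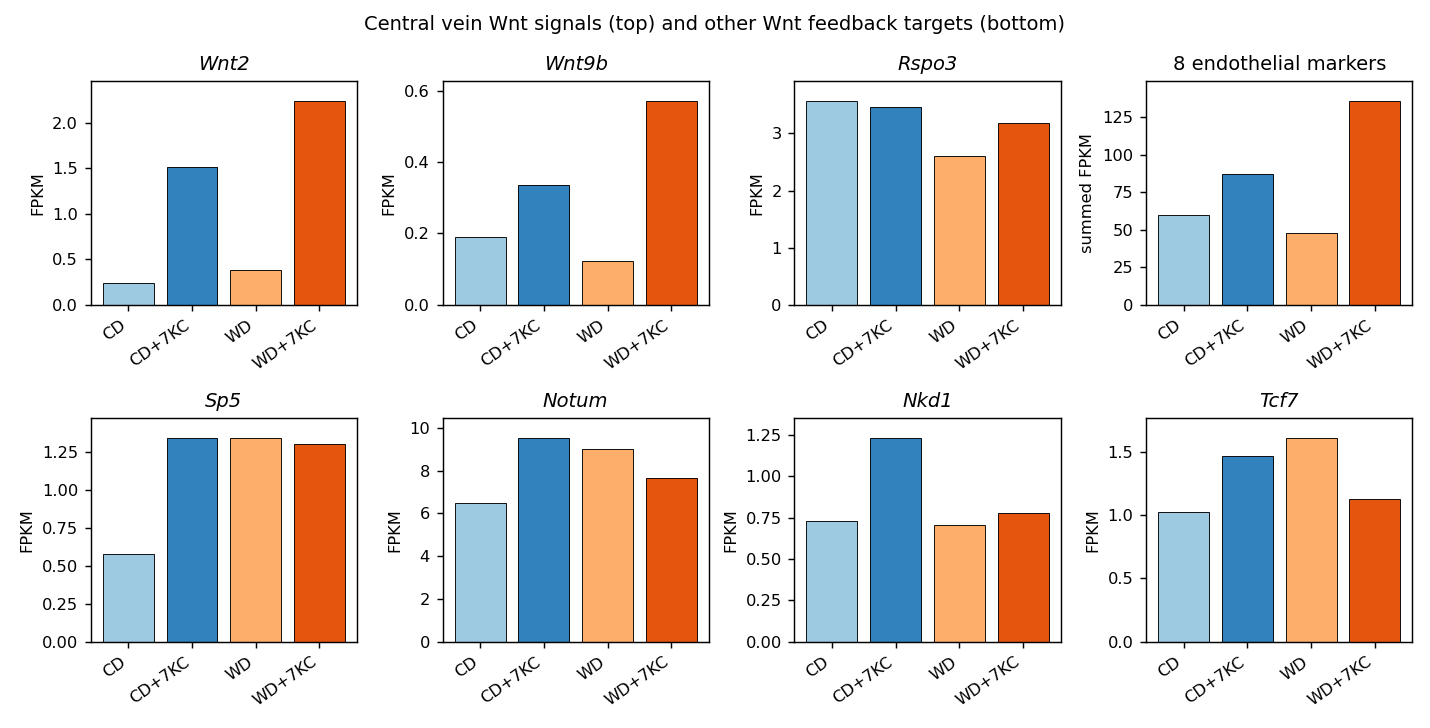
FPKM (vertical axes, from 0) in the 4 libraries of the central vein signals Wnt2, Wnt9b and Rspo3 and of the sum of 8 endothelial markers (top), and of the Wnt feedback targets Sp5, Notum, Nkd1 and Tcf7 (bottom), with 1 bar for each library. Wnt2 was higher in both libraries with 7KC (1.52 and 2.23 FPKM) than in both without (0.238 and 0.387 FPKM), whereas Sp5 and Notum were lowest in CD (0.575 and 6.50 FPKM).

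Of the 6 other Wnt feedback targets, Notum, which encodes a secreted enzyme that inactivates Wnt proteins, had the highest level. It was at 6.50 FPKM in CD, 9.52 FPKM in CD+7KC, 9.02 FPKM in WD, and in WD+7KC at 7.64 FPKM. CD was its low library, as it was for Axin2. The log2 fold change of Notum with 7KC was 0.54 (0.22 to 0.89) on CD and -0.24 (-0.56 to 0.09) on WD, and the difference between the diets was -0.78 (-1.26 to -0.32) by counting error alone. Sp5, a transcription factor induced by Wnt, was at 0.575 FPKM in CD, 1.34 FPKM in CD+7KC, 1.34 FPKM in WD, and in WD+7KC at 1.30 FPKM. Its log2 fold change with 7KC was 1.09 (0.20 to 2.33) on CD, from 12.0 and 27.9 reads, and -0.04 (-0.86 to 0.80) on WD. With a pseudocount of 1 the value of Sp5 on CD was 0.57, no longer above 1. Tcf7, a TCF/LEF factor, had 0.48 (-0.39 to 1.53) on CD and -0.47 (-1.42 to 0.42) on WD. In this list 1 of 6 genes was above 1 on CD (Sp5) and 1 on WD (Apcdd1, listed at 0 in WD, with about 2.6 reads in WD+7KC), and 0 were below -1 in either.

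Of the 14 receptor genes, 11 were above 0 FPKM in the WD pair of libraries and 12 in the CD pair, and 0 were past 1 or -1 with 7KC on either diet, with medians of -0.10 on WD and -0.21 on CD. The co-receptor Lrp5 had 0.37 (0.22 to 0.53) on WD and 0.08 (-0.08 to 0.23) on CD. Lgr4, the R-spondin receptor that is broadly expressed in hepatocytes and a relative of Lgr5, was at 8.14 FPKM in CD, 6.96 FPKM in CD+7KC, 7.03 FPKM in WD, and in WD+7KC at 5.49 FPKM, with -0.35 (-0.59 to -0.13) on WD and -0.22 (-0.43 to -0.02) on CD. The receptor Fzd6 had -0.52 (-1.11 to -0.01) on WD and 0.27 (-0.26 to 0.84) on CD. Ctnnb1, the gene of β-catenin, was at 67.2 FPKM in CD, 61.3 FPKM in CD+7KC, 66.5 FPKM in WD, and in WD+7KC at 70.3 FPKM. Among 17 genes of β-catenin turnover and transcription the medians were 0.03 on WD and -0.02 on CD. On WD 0 of them were above 1 and 1 was below -1, the coactivator gene Pygo1, and on CD 0 were past either limit. Pygo1 had -1.10 (-2.91 to -0.58) on WD, from about 24.9 reads in WD and 10 in WD+7KC. Tcf7l1 had 0.68 (0.10 to 1.38) on WD, Tcf7l2, another TCF factor gene, 0.46 (-0.06 to 0.98), Axin1 0.14 (-0.18 to 0.46) and Btrc -0.14 (-0.72 to 0.46). Of the 13 secreted and membrane inhibitors, 7 were above 0 FPKM in the WD pair of libraries, with 0 above 1 and 1 below -1 (Sfrp4, listed at 0 in WD+7KC beside 3.0 reads in WD). On CD, 9 were above 0 FPKM, with 0 above 1 and 1 below -1, which was Frzb with -1.25 (-2.10 to -0.62). Frzb had -0.34 (-0.93 to 0.20) on WD, and Kremen1, the most abundant inhibitor gene, had 0.07 (-0.21 to 0.35).

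Other genes of pericentral hepatocytes, which respond to further signals besides Wnt, covered a wider range of log2 fold changes than the 9 genes in each of the 4 comparisons. Cyp2e1, the ethanol-oxidizing cytochrome P450, was at 3444 FPKM in CD, 2778 FPKM in CD+7KC, 2585 FPKM in WD, and in WD+7KC at 1424 FPKM, in contrast to Glul, which had its highest value in WD+7KC. The log2 fold change of Cyp2e1 was -0.86 (-0.88 to -0.84) on WD and -0.31 (-0.33 to -0.29) on CD. Cyp1a2 was at 74.2 FPKM in CD, 119 FPKM in CD+7KC, 44.1 FPKM in WD, and in WD+7KC at 40.4 FPKM. Its log2 fold change of -0.13 on WD turned to 0.09 after rescaling to equal sums. Cyp7a1, the rate-limiting enzyme of bile acid synthesis, had -0.99 (-1.21 to -0.79) on WD and -0.66 (-0.83 to -0.50) on CD, and Lhpp, a phosphatase, had 0.31 (0.15 to 0.47) and 0.48 (0.33 to 0.64). With 7KC, 0 of these 13 genes were past 1 or -1 on either diet, with medians of -0.13 on WD and 0.14 on CD. In WD relative to CD, 1 was above 1 (Slc22a3) and 0 below -1. In WD+7KC relative to CD+7KC, 0 were above 1 and 4 were below -1 (Cyp1a2, Cyp2a5, Rgn and Nr1i3, of which the last 3 are named because of their values). Of all genes compared 4.61% were below -1 there, and Rhbg among the Wnt targets had -0.97.

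Periportal genes, whose products work at the opposite end of the lobule, had medians of -0.14 with 7KC on WD and 0.07 on CD over 12 genes. Arg1, the arginase of the urea cycle, had -0.40 (-0.43 to -0.36) on WD and -0.07 (-0.10 to -0.03) on CD. Sds, the serine dehydratase gene, had 0.11 (0.03 to 0.18) and 0.57 (0.49 to 0.65), and Cdh1, the gene of E-cadherin, -0.65 (-0.95 to -0.39) and -1.14 (-1.76 to -0.69). With 7KC, 0 of the 12 were past either limit on WD, and 0 were above 1 and 1 was below -1 on CD (Cdh1). In WD+7KC relative to CD+7KC their median was -0.45, with 1 above 1 (Cdh1) and 2 below -1 (Hal and Cyp2f2). For 17 other genes of glutamate, glutamine and ammonium handling, 15 were above 0 FPKM in the libraries with and without 7KC, and 0 were past 1 or -1 with 7KC on either diet. Glud1, which releases ammonium from glutamate, had -0.24 (-0.28 to -0.21) on WD and -0.01 (-0.04 to 0.02) on CD. Its value on WD was about the size of the shift from rescaling to equal sums, so it depends on the scaling. The amino acid transporter gene Slc1a4 had 0.59 (0.11 to 1.12) on WD and 0.08 (-0.39 to 0.57) on CD, and Prodh, which degrades proline, had -0.35 (-0.48 to -0.22) and 0.45 (0.34 to 0.56). The ammonium transporter genes Rhag and Rhcg, relatives of Rhbg, were listed at 0 in all 4 libraries.

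**Figure D4:**
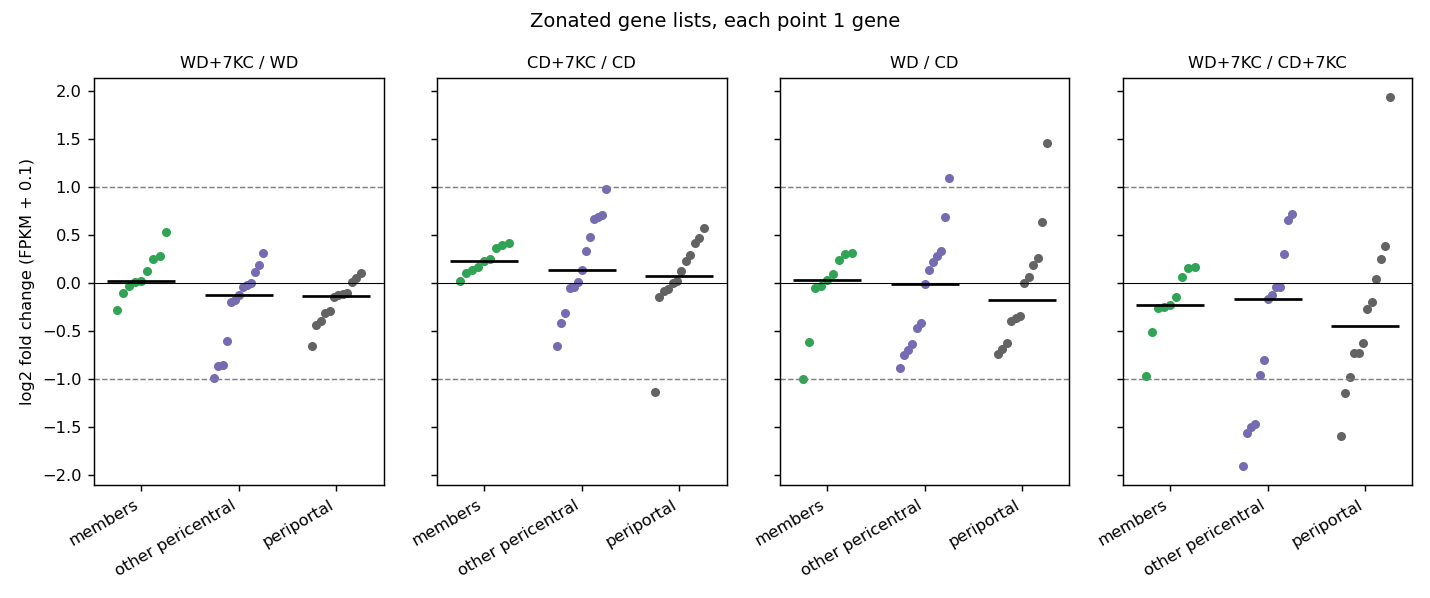
Log2 fold change on the log2(FPKM + 0.1) scale (vertical axis) in the 4 comparisons for the 9 Wnt targets, 13 other pericentral genes and 12 periportal genes, with each point a gene, black bars the medians and dashed lines at -1 and 1. None of the 9 Wnt targets lay past the dashed lines, and in CD+7KC relative to CD all 9 lay above 0 with a median of 0.23.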

How the data were processed

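Hepatic mRNA was measured in 4 libraries, 1 for each of CD, CD+7KC, WD and WD+7KC. According to the labels and the study's methods, the authors prepared stranded mRNA libraries, mapped 75-base single-end reads to mm10 with TopHat2 2.0.13, Bowtie2 2.2.3 and SAMtools 0.1.19, and computed FPKM with Cufflinks 2.2.1. The deposited FPKM values, 1 per gene symbol, were used as given. The gene annotation and Cufflinks options are not given in the sources used here.

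Log2 fold changes used a pseudocount of 0.1, excluded genes at 0 FPKM on both sides of a comparison, and set limits of 1 and -1. Depth was estimated from 14058 genes with 1 RefSeq-linked mRNA (GENCODE vM21, GRCm38) of length minus 200 bases. Of the low values (under 8 reads), 71.2% to 72.7% came to a whole number of reads with a tolerance of 0.1, so read numbers are approximate. The code was tested on simulated data, and in a simulated pair of libraries drawn from CD 93.5% of 200 changed genes of 14058 lay inside their 95% interval. The changed genes were drawn from better expressed ones, and these intervals used the depth that was set. The simulation therefore does not cover the low members or error in the estimated depth.

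The members and lists were chosen with earlier results of these data known. Genes were named by a rule: the 9 members, partners of the pathway, and from each list the gene of highest level and those with the largest and smallest change on WD, where genes averaging under 1 FPKM were passed over. Other genes are named because of their values. Alternatives were pseudocounts of 1 and 0.01, rescaling to equal sums, to the upper quartile or by the median ratio, centring on hepatocyte markers, a limit of 1.5-fold and a filter of 1 FPKM. Python 3.11.15, numpy 2.4.6, pandas 2.3.3, scipy 1.17.1 and matplotlib 3.10.9 were used.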

Additional observations from a re-analysis of the deposited data

Results flagged for a closer look

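In 3 genes the 7KC difference had opposite signs on the 2 diets, and each group held 1 library, so the difference was not tested. For Tbx3 the log2 fold change with 7KC was -0.28 on WD and 0.01 on CD, a difference of -0.30 (95% counting interval -0.71 to 0.11). For Axin2 it was -0.10 on WD and 0.36 on CD, a difference of -0.47 (-1.23 to 0.23). For Lgr5 it was -0.04 on WD and 0.14 on CD, a difference of -0.17 (-1.26 to 0.86). Tbx3 and Axin2 were also higher on WD without 7KC (0.03 and 0.32) and lower on WD with it (-0.26 and -0.15), which restates the same difference. After rescaling to equal sums, Axin2 and Lgr5 were higher with 7KC on both diets.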

How the results depend on the processing

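No paired analysis was possible because each group had 1 library. The median of the 9 genes in WD+7KC relative to WD, 0.02 as reported, was 0.24 after rescaling to equal sums, 0.070 with upper quartile scaling, 0.25 when centred on the hepatocyte markers and 0.074 without Lgr5, which failed the filter of 1 FPKM. It stayed above 0 in each case. The all-gene median moved with it, to 0.21 with equal sums, 0.047 with upper quartile scaling and 0.23 when centred. The sign of the median after rescaling thus came with a shift of all genes, as did the intervals gained below. The rescalings also changed which counting intervals lay above 0 on WD with 7KC: Oat as reported, and Glul, Oat, Slc1a2 and Rhbg after rescaling to equal sums or centring on hepatocyte markers, and Glul, Oat and Slc1a2 with upper quartile scaling. On CD, centring added Rhbg, Axin2 and Rnf43. In both diet comparisons, equal sums and centring added Slc1a2. The number of genes below -1 in WD relative to CD, 0 as reported, was 1 (Rhbg) with a pseudocount of 0.01, upper quartile scaling or median ratio scaling, and 2 (Oat and Rhbg) with a limit of 1.5-fold. In WD+7KC relative to CD+7KC that limit gave 1 (Rhbg). Of the other values for single members, 203 stayed within their counting interval and 13 did not. In alternatives added after seeing the data, a pseudocount of 1 gave 1.22 on WD and 1.02 on CD for Wnt2, which stayed above 1. It gave 0.48 for Wnt9b on WD, and 0.57 for Sp5 both in CD+7KC relative to CD and in WD relative to CD, none of which stayed above 1. Lgr5 rested on 28 to 38 reads and Wnt2 on 5.3 to 55.5 reads, which limits their precision.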

Other observations

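Profiles over the 4 libraries were compared by the Euclidean distance between centred log2(FPKM + 0.1) values, as a description over 4 libraries only. The 3 genes nearest to Glul were Myl6 (distance 0.012), Ikbke (0.014) and Rpa2 (0.016), and 1190 of 10635 genes lay within 0.2. The 3 nearest to Axin2 were Sae1 (0.027), Uaca (0.027) and Lrfn3 (0.028), and 485 of 10635 genes lay within 0.2. The 3 nearest to Lgr5 were Dynlt3 (0.016), Gcc2 (0.023) and Kdm6a (0.029), and 1522 of 10636 genes lay within 0.2. With 4 libraries, many genes resemble any flat profile this closely.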
